A study of Mus musculus with 6 samples.

Results

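The Notch pathway was examined through 10 genes, taken by gene name from a table of 53465 mouse genes. They were the receptors Notch1, Notch2, Notch3 and Notch4, the ligands Jag1, Jag2, Dll1 and Dll4, and the target genes Hes1 and Hey1. RNA sequencing had been performed on 6 primary cell lines, each grown from a liver tumour of a different C57BL/6 mouse. The tumours had been induced by injecting a transposon that expressed Myc into the tail vein, so that hepatocytes took it up, along with a plasmid for Cas9 and 1 guide RNA. In the 3 Myc_Utx lines (2A, 2B and 2D), which are labelled as KDM6A-deficient, the guide was directed against Kdm6a (also called Utx), an enzyme that removes methyl groups from lysine 27 of histone H3. In the 3 Myc_p53 lines (1, 2 and 3), which served as the controls, it was directed against the tumour suppressor gene Trp53. All lines therefore carried Myc, and neither group was free of a targeted tumour suppressor gene, so that a difference between the groups cannot be told apart into an effect of one target or the other. The question was how the components of the pathway differed between tumour cells of the 2 genotypes.

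Notch receptors are proteins of the cell surface that are bound by Jagged or Delta-like ligands on a neighbouring cell. Binding leads to cleavage of the receptor by an ADAM protease and then by gamma-secretase, and the freed intracellular part enters the nucleus, where it joins the DNA-binding protein Rbpj and a Mastermind co-activator to switch on targets such as the Hes and Hey repressors. In the liver, the pathway is best known for directing progenitor cells towards the bile duct lineage.

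Total counts ranged from 4656103 to 6937497 per line, 24221 genes had at least 1 count in any line, and 11510 genes passed the filter on low counts and were tested. At an adjusted p under 0.05 (edgeR quasi-likelihood test with Benjamini-Hochberg adjustment), 14.7% of tested genes differed between the groups, with 6.99% higher and 7.69% lower in Myc_Utx lines (805 and 885 genes, or 601 and 1009 when libraries were scaled by total counts only). The groups did not overlap for 42.0% of tested genes, and the median log2 fold change was -0.01. Trp53 mRNA was lower in every Myc_p53 line (186 to 251 counts) than in every Myc_Utx line (1239 to 1578 counts), with a log2 fold change of 3.07 (SE 0.11, edgeR adjusted p = 0.000488). Kdm6a mRNA was measured at 199 to 244 counts in Myc_Utx lines and 298 to 440 counts in Myc_p53 lines, with overlapping levels once scaled to library size (log2 fold change -0.39, SE 0.22, edgeR adjusted p = 0.243). The methods of the study name a guide against Mll3, which is encoded by Kmt2c, for the sequenced lines, where the labels and the study's account of its RNA sequencing name Utx or Kdm6a, which is followed here. Kmt2c, added after its values were seen, had 349 to 411 counts in Myc_Utx lines and 625 to 939 counts in Myc_p53 lines (log2 fold change -0.73, SE 0.15, edgeR adjusted p = 0.0289). The transcript model of Kmt2c spans 20291 bases, and longer transcripts tended to be lower in Myc_Utx lines, as described below. Its value with length offsets is not given here. A guide-directed deletion of a few bases need not lower the mRNA, so the mRNA levels of Kdm6a and Kmt2c are no check of the edit. The study reports indels in Kdm6a and loss of its protein in cell lines from tumours made with the Kdm6a guide.

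Of the cell types that the cultures could hold, endothelial cells, the usual source of Notch4 and Dll4 in liver, left little RNA, as 6 of the 10 endothelial markers were at or under 3 counts in every line and the endothelial sum was 16.8 to 21.6 CPM (counts scaled to a common library size) in Myc_Utx lines against 6.70 to 15.8 in Myc_p53 lines. Egfl7 supplied most of the endothelial sum in every line, so the sum largely repeats the level of Egfl7. This gene was at 16.4, 17.6 and 21.4 CPM in Myc_Utx lines and at 14.2, 7.78 and 5.56 CPM in Myc_p53 lines. Erg, the next by mean count, had 8 counts in Myc_Utx line 2B and 0 in every other line, and Emcn was at 0 counts throughout. Hepatocyte markers were also low for a liver line, with a sum over 8 genes of 35.5 to 146 CPM against 36.9 to 84.7 CPM. Cebpa and Fgb led that list, Serpina1a and Cps1 were at or under 3 counts in every line, and Alb, the defining product of the hepatocyte, had 4 to 26 counts. The 8 biliary markers, led by Spp1 and Krt19, summed to 554 to 1463 CPM in Myc_Utx lines and 168 to 1566 CPM in Myc_p53 lines. Spp1 was the most abundant of the 8 in every line. Krt19 alone was at 46.7, 4.68 and 28.7 CPM in Myc_Utx lines and at 330.0, 60.2 and 352 CPM in Myc_p53 lines, which did not overlap (log2 fold change -3.22, SE 0.95, edgeR adjusted p = 0.0653, called by DESeq2). Krt7 had 1, 0 and 2 counts in Myc_Utx lines and 100, 3 and 459 counts in Myc_p53 lines. The biliary list did not move in 1 direction, as the log2 fold change was above 0 for 2 of the 4 tested and below 0 for 2. Sox9 was at 40.5, 74.1 and 32.5 CPM in Myc_Utx lines and at 35.1, 20.6 and 20.96 CPM in Myc_p53 lines. Its groups overlapped (log2 fold change 0.94, SE 0.37, edgeR adjusted p = 0.131).

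Macrophage markers moved with the genotype. The 10 genes, led by Lyz2 and Csf1r, summed to 2.79 to 5.99 CPM in Myc_Utx lines and 40.2 to 109 CPM in Myc_p53 lines. Of the 6 tested, 5 were lower in Myc_Utx lines at an edgeR adjusted p under 0.05, against 7.69% of all tested genes. These 5 had at most 5 counts in any Myc_Utx line, so they passed the filter on low counts through the Myc_p53 lines. Their calls are therefore given as a description. Ptprc and Clec4f were at or under 3 counts in every line. Markers of stellate cells, pericytes and fibroblasts, led by Pdgfrb and Col1a1, summed to 146 to 331 CPM against 166 to 619 CPM, with Lrat at 0 throughout. The part of these other cells in the results on the Notch genes was not tested, and in bulk RNA fewer cells of a type cannot be told apart from less RNA per cell.

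Of the 10 Notch genes, 7 passed the filter on low counts and 2 of these changed between the genotypes. Hes1 was 6.20-fold higher and Notch2 was 1.49-fold lower in Myc_Utx lines than in Myc_p53 lines, while Notch1, Notch3, Jag1, Jag2 and Hey1 did not pass the test. Notch4, Dll1 and Dll4 had at most 15 counts in any line and were not tested. Among the 7 tested genes the log2 fold change was above 0 for 3 and below 0 for 4, with a median of -0.55 against -0.01 over all tested genes. The groups did not overlap for 2 of the 7, against 42.0% of all tested genes, and 1 gene was called in each direction, against 6.99% higher and 7.69% lower overall. Values in the following are CPM after normalization with the trimmed mean of M values (TMM), unless they are given per length.

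**Figure D1:**
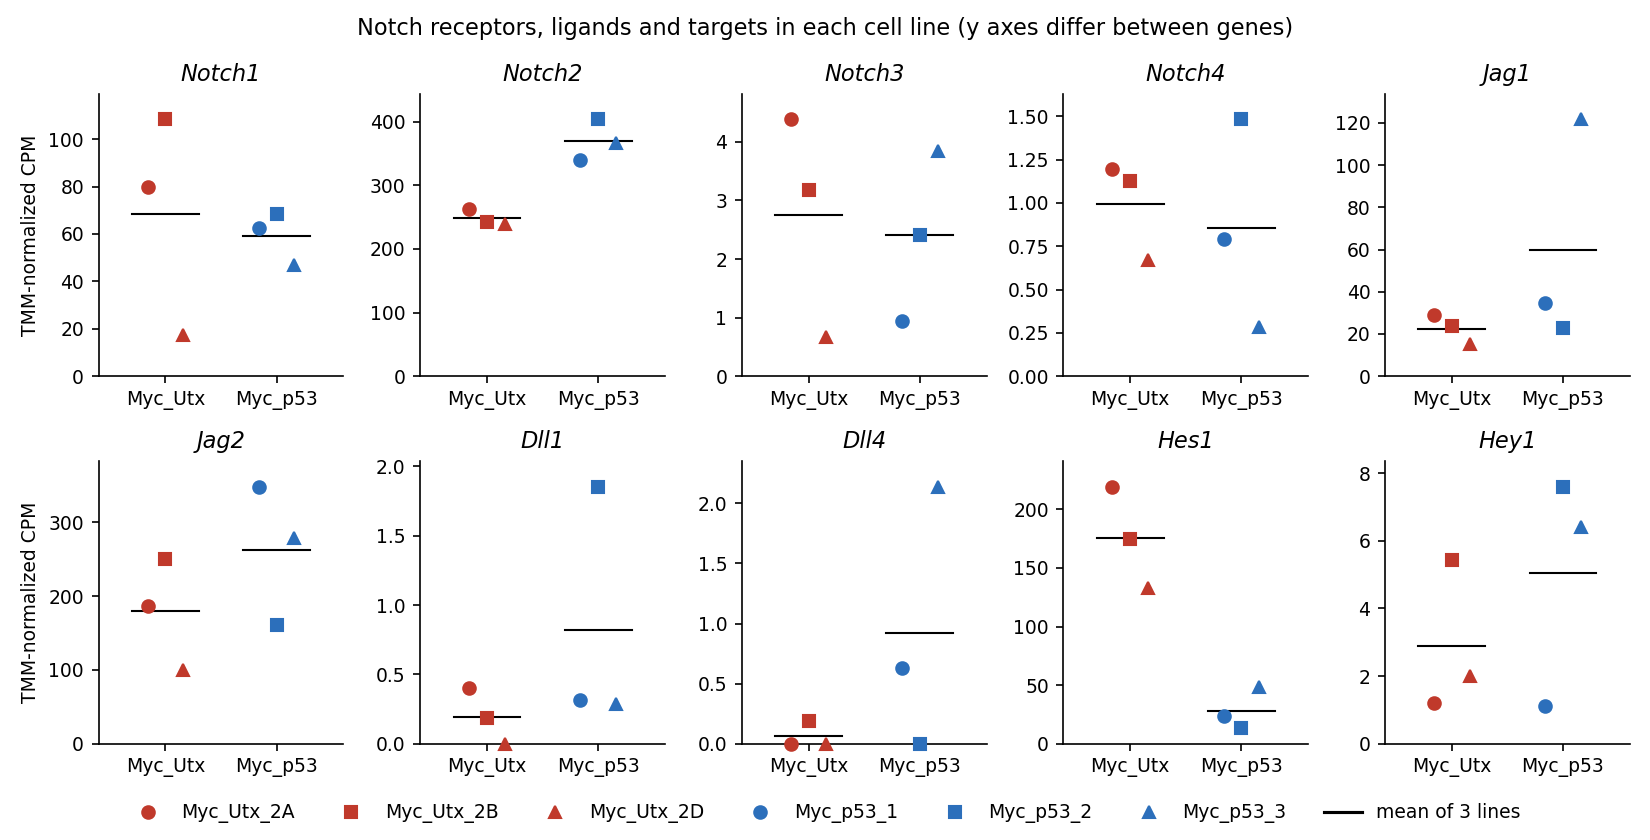
Each panel plots the TMM-normalized CPM of 1 Notch gene in the 3 Myc_Utx lines (red) and the 3 Myc_p53 lines (blue), with a bar at the mean of each group. All red points lie above all blue points for Hes1 and below them for Notch2, and the groups overlap in the other panels; y axes differ between genes.

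Among the receptors, Notch2 was the most abundant, also per length, and the most even of those tested. Its level was 262, 242 and 239.8 CPM in Myc_Utx lines 2A, 2B and 2D, and 339.8, 404 and 367 CPM in Myc_p53 lines 1, 2 and 3. Every Myc_Utx line was therefore below every Myc_p53 line, and the highest and lowest line of a group differed by 1.09-fold and 1.19-fold. The means were 248 ± 12.3 and 370.1 ± 32.2 CPM (SD, n = 3 each), and the log2 fold change was -0.58 (SE 0.11, edgeR adjusted p = 0.0245). With 3 lines against 3, the exact permutation test, which is two-sided here and below, cannot go below p = 0.1, and Notch2 reached this value. In these libraries longer transcripts tended to be lower in Myc_Utx lines (Spearman's rho of -0.25 between log2 fold change and transcript length across the 11510 tested genes, which are not independent replicates), and with an offset for length in each library the log2 fold change of Notch2, whose transcript model spans 10782 bases, moved to -0.32 (edgeR adjusted p = 0.0992). Leaving out 1 line kept the Notch2 difference between -0.64 and -0.51, but the adjusted p was above 0.05 without Myc_Utx line 2A (0.0775), 2B (0.0934) or 2D (0.101) and without Myc_p53 line 3 (0.0687).

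Notch2 lies on chromosome 3 from 98013527 to 98150361 on the plus strand (ENSMUSG00000027878, GRCm38). Inside its span are the same-strand gene models Gm42819 and Gm42820, which had at most 8 counts in any line, as had every gene that overlaps another member. Because Hes proteins are repressors that recognise CACGCG (class C site) and CACNAG (N box), and Rbpj recognises the core TGGGAA, these letters were searched on both strands in RefSeq promoter windows of GRCm38.p6, which run from upstream of a start site to shortly after it. Windows were found for 8 of the 10 genes, 9 in all, and those of Hes1 and Hey1 were not among them. TGGGAA was found in 0 of the 9 windows and in 25.6% of all 32851 windows, CACGCG in 5 of 9 and in 9.27% of all, and CACNAG in 5 of 9 and in 42.5% of all. A match of letters is a description and not evidence of binding, and the window of a gene can share letters with many others through its base composition. The stretch before the annotated start of Notch2 is shown because Notch2 was the receptor that differed, at chr3:98013288-98013526 on the plus strand, with the CACGCG in capitals beginning 31 bases before the start of the gene and a GC content of 74.1%. The stretch also holds a CACNAG match on the other strand (ctagtg, at position -247 from the RefSeq start), which is left in small letters.
Notch2 upstream: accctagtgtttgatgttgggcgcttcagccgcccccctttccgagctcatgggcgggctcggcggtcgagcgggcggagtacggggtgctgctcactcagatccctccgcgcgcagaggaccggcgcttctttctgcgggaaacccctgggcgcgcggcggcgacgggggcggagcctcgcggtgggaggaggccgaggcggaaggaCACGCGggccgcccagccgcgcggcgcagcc

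Notch1, which like Notch2 is expressed by epithelial cells of the liver, differed more among the Myc_Utx lines than between the groups. It was measured at 79.8, 108 and 17.4 CPM in Myc_Utx lines 2A, 2B and 2D, a 6.24-fold range, and at 62.4, 68.4 and 46.8 CPM in Myc_p53 lines 1, 2 and 3, a 1.46-fold range. Line 2D was thus the lowest of the 6 and line 2B the highest. The log2 fold change was 0.21 (SE 0.59, edgeR adjusted p = 0.818), and it turned to -0.27 without line 2B and rose to 0.69 without line 2D, in neither case past the threshold. The gene lies on chromosome 2 from 26457903 to 26516663 on the minus strand (ENSMUSG00000026923).

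Notch3, a receptor of vascular smooth muscle cells and pericytes, was close to the limit of detection. Its counts were 22, 17 and 3 in Myc_Utx lines and 6, 13 and 27 in Myc_p53 lines, so that each group held both low and high lines. The log2 fold change of 0.20 (SE 0.74, edgeR adjusted p = 0.871) became -0.28 without Myc_Utx line 2A and -0.19 without Myc_p53 line 1. Notch4, a receptor of endothelial cells, had 6, 6 and 3 counts against 5, 8 and 2 counts, or 15 in each group, and a difference in Notch4 was not detectable at this depth. Notch3 and Notch4 both lie on chromosome 17, from 32120820 to 32166880 on the minus strand (ENSMUSG00000038146) and from 34564268 to 34588503 on the plus strand (ENSMUSG00000015468).

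Per transcript length, as RPKM (here TMM-normalized CPM divided by the deposited length in kilobases), the 4 receptors summed to 30.6, 30.6 and 23.6 in Myc_Utx lines and to 36.1, 42.7 and 37.81 in Myc_p53 lines. The summed receptor level was lower in each Myc_Utx line than in each Myc_p53 line (28.3 ± 4.02 against 38.9 ± 3.45 RPKM, SD, n = 3, exact permutation p = 0.1, the smallest possible). Notch2 supplied most of this sum in every line, so the sum largely repeats the Notch2 difference. Dividing by length does not remove the trend with length given above, and the sum was not compared with length offsets. Its share of receptor RPKM was 79.4, 73.3 and 94.1% in Myc_Utx lines and 87.3, 87.6 and 90.0% in Myc_p53 lines, and the groups overlapped (exact permutation p = 0.4). The share was highest in line 2D, where Notch1 was lowest and Notch2 stood at 18.2 times the RPKM of Notch1, against 2.94 to 10.4 times in the other 5 lines.

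**Figure D2:**
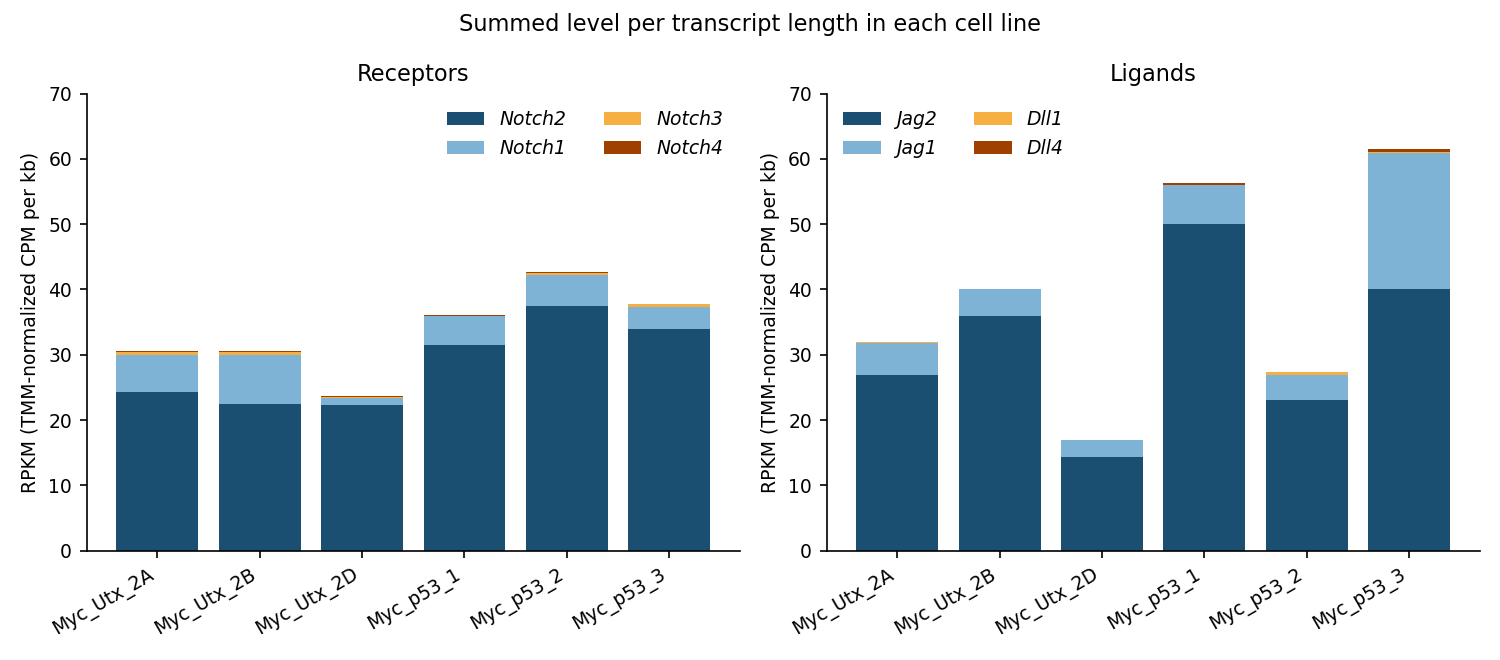
Stacked bars plot the RPKM of the 4 receptors (left) and of the 4 ligands (right) in each of the 6 cell lines, with both axes starting at 0. Notch2 fills 73.3 to 94.1% of each receptor bar and Jag2 65.0 to 89.7% of each ligand bar; the receptor bars are lower in the 3 Myc_Utx lines than in the 3 Myc_p53 lines, whereas the ligand bars of the groups overlap.

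No ligand passed the test, as 0 of the 2 tested ligands were called by edgeR or by DESeq2 and 0 had an unadjusted edgeR p under 0.05, against 24.2% of all tested genes called by DESeq2 and 35.0% with an unadjusted edgeR p under 0.05. Jag2 was the main ligand, also per length, at 187, 251 and 100.2 CPM in Myc_Utx lines 2A, 2B and 2D and 348 (line 1), 161 (line 2) and 279 (line 3) CPM in the Myc_p53 lines. The ranges overlapped, with Myc_p53 line 2 below both 2A and 2B. The log2 fold change of Jag2 was -0.55 (SE 0.40, edgeR adjusted p = 0.368), which is similar in size to that of Notch2 with a larger error. Jag2 lies on chromosome 12 from 112907819 to 112929776 on the minus strand (ENSMUSG00000002799).

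Jag1, the ligand whose loss in patients causes a shortage of bile ducts, was measured at 28.9, 23.6 and 15.1 CPM in Myc_Utx lines and at 34.8, 22.8 and 122 CPM in Myc_p53 lines. Myc_p53 line 3 stood apart, and the other 5 lines lay between 15.1 and 34.8 CPM. The log2 fold change of -1.41 (SE 0.65, edgeR adjusted p = 0.177) shrank to -0.36 (edgeR adjusted p = 0.543) without that line. The same line had the most counts of Krt7 (459) and Krt19 (2468), keratins of bile duct cells. It also had the most of Acta2 (1552) and Col1a1 (1655), which mark stellate cells and fibroblasts. Not every marker of these lists was highest there. Spp1 (7275), Sox9 (396) and Pdgfrb (1454) had their most counts in Myc_Utx line 2B, and Cspg4 (867) in Myc_p53 line 1. The part of such cells in the Jag1 level was not tested. Myc_p53 line 1 had 2088 counts of Krt19 and 100 of Krt7, with Jag1 at 34.8 CPM. Jag1 lies on chromosome 2 from 137081456 to 137116644 on the minus strand (ENSMUSG00000027276).

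The Delta-like ligands were barely detected. Dll1 had 2, 1 and 0 counts in Myc_Utx lines and 2, 10 and 2 counts in Myc_p53 lines, with the 10 counts of line 2 making up most of the 14 in that group. Dll4, a ligand of sprouting endothelial cells, had 0, 1 and 0 counts against 4, 0 and 15 counts, again with 1 line, this time line 3, supplying most. As 3 counts correspond to 0.428 to 0.668 CPM in these libraries, most of these values are at the floor of the measurement, and no fold change is given. Dll1 lies on chromosome 17 from 15367354 to 15376872 on the minus strand (ENSMUSG00000014773) and Dll4 on chromosome 2 from 119325784 to 119335962 on the plus strand (ENSMUSG00000027314).

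Jagged and Delta-like ligands together summed to 31.9, 40.1 and 17.0 RPKM in Myc_Utx lines and to 56.2, 27.4 and 61.5 RPKM in Myc_p53 lines. The groups overlapped (29.7 ± 11.7 against 48.4 ± 18.4 RPKM, SD, n = 3, exact permutation p = 0.3). Jag2 made up 84.2, 89.7 and 84.7% of the ligand RPKM in Myc_Utx lines and 89.0, 84.1 and 65.0% in Myc_p53 lines, the lowest share being that of line 3, in which Jag1 reached 34.0%.

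The 2 target genes differed from each other. Hes1, a basic helix-loop-helix repressor that many signals besides Notch can induce, was measured at 219, 175 and 133 CPM in Myc_Utx lines 2A, 2B and 2D and at 23.2, 13.0 and 48.3 CPM in Myc_p53 lines 1, 2 and 3. The lowest Myc_Utx line was above the highest Myc_p53 line, and within a group the lines differed by 1.65-fold and 3.73-fold. The means were 176 ± 43.3 and 28.2 ± 18.2 CPM (SD, n = 3 each), with a log2 fold change of 2.63 (SE 0.49, edgeR adjusted p = 0.0241, exact permutation p = 0.1). Length offsets left the difference at 2.46 (edgeR adjusted p = 0.0333).

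Hes1 stayed higher in Myc_Utx lines when any 1 line was left out, with log2 fold changes from 2.30 to 2.82 and of 3.27 without Myc_p53 line 3, while the adjusted p rose above the threshold without Myc_Utx line 2A (0.0777), 2B (0.0742) or 2D (0.0717) and without Myc_p53 line 1 (0.0595). In these smaller fits the share of all genes called was also lower, between 0.0332 and 9.41%, against 16.4% without Myc_p53 line 2 and 1.02% without Myc_p53 line 3, where Hes1 was still called. Hes1 lies on chromosome 16 from 30064384 to 30067796 on the plus strand (ENSMUSG00000022528), and no other annotated gene overlaps it.

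**Figure D3:**
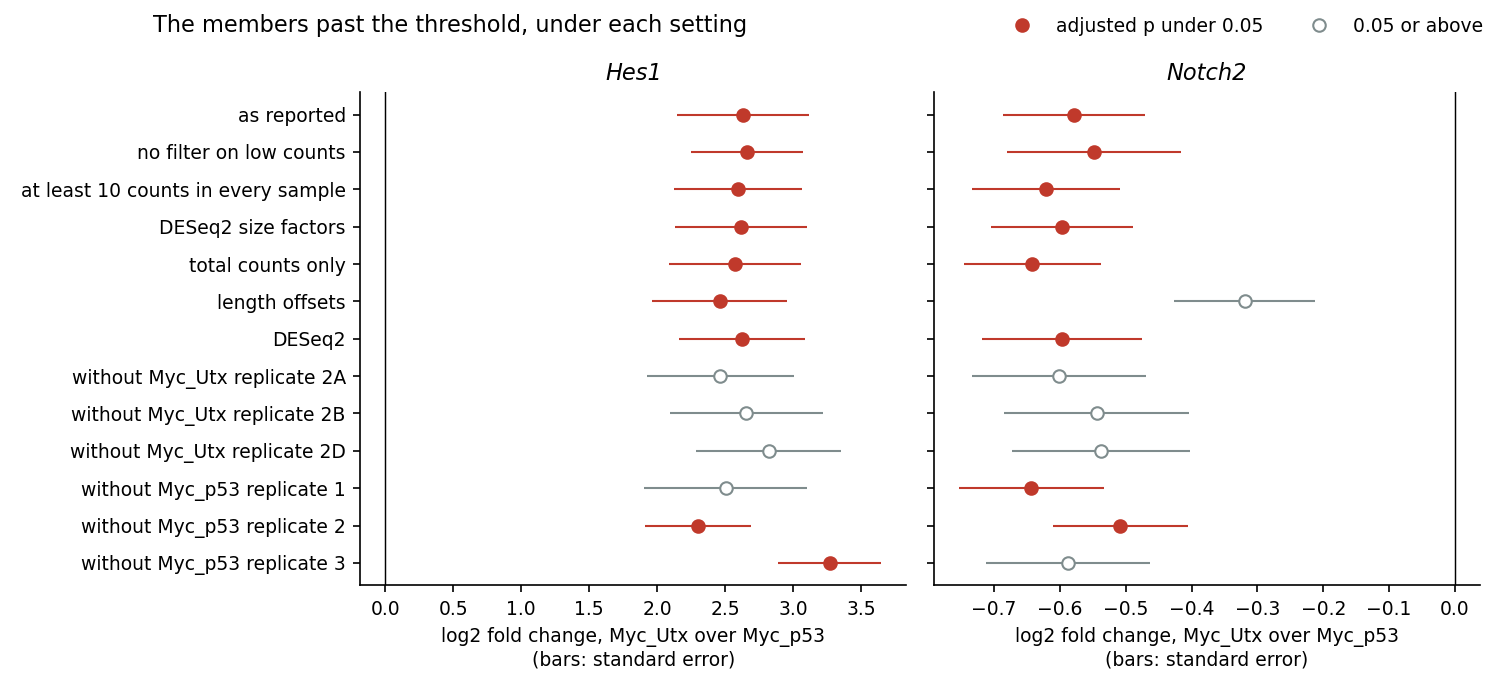
Points plot the log2 fold change (Myc_Utx over Myc_p53) of Hes1 (left) and Notch2 (right) as reported, under 6 other settings of the analysis and with each of the 6 lines left out, with bars for the standard error and filled points for an adjusted p under 0.05. Hes1 stays between 2.30 and 3.27 and Notch2 between -0.64 and -0.32 in every setting plotted, but each loses the call in 4 of the 6 fits that leave out a line, and Notch2 also with length offsets.

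Hey1, a related repressor induced by Notch, did not follow Hes1. Its counts were 6, 29 and 9 in Myc_Utx lines and 7, 41 and 45 in Myc_p53 lines, and each group held a line with under 10 counts and a line with over 20. The log2 fold change of Hey1 was -0.79 (SE 0.82, edgeR adjusted p = 0.524). It lies on chromosome 3 from 8663359 to 8667256 on the minus strand (ENSMUSG00000040289). The ratio of Hes1 to Hey1 RPKM was 294, 51.6 and 106 in Myc_Utx lines and 33.7, 2.74 and 12.1 in Myc_p53 lines, with no overlap (exact permutation p = 0.1). Hes1 alone already separated the groups, and Hey1 had at most 45 counts in any line. The ratio therefore largely repeats the Hes1 difference and is no separate result.

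Set against its receptor, Hes1 had 4.43, 3.83 and 2.93 times the RPKM of Notch2 in Myc_Utx lines and 0.362, 0.170 and 0.698 times in Myc_p53 lines. Hes1 mRNA thus exceeded Notch2 mRNA in each Myc_Utx line and was below it in each Myc_p53 line. This ratio sets a gene that was higher in every Myc_Utx line against one that was lower in every Myc_Utx line. Its lack of overlap (exact permutation p = 0.1) therefore follows from the 2 genes, and the ratio is a description only.

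By mean RPKM over the 6 lines, the order was Hes1 (50.04), Jag2 (31.7), Notch2 (28.7), Jag1 (7.06), Notch1 (4.49), Hey1 (1.21), Notch3 (0.320), Dll4 (0.128), Dll1 (0.120) and Notch4 (0.115). Of neighbours in this order, Notch2 and Jag1 were separated, with Notch2 at 22.2 to 37.5 RPKM and Jag1 at 2.60 to 20.9 RPKM, whereas the ranges of all other neighbours overlapped. Hes1, for example, was above Jag2 in 3 of the 6 lines, and Jag2 above Notch2 in 4. The order differed between the genotypes. By group mean, Hes1 (86.2 RPKM) led Jag2 (25.8) and Notch2 (23.0) in Myc_Utx lines, whereas in Myc_p53 lines Jag2 (37.70) and Notch2 (34.3) were above Hes1 (13.8). Jag1 was above Notch1 by group mean in Myc_p53 lines (10.3 against 4.16 RPKM) but not in Myc_Utx lines (3.87 against 4.81 RPKM), and its 20.9 RPKM in Myc_p53 line 3 compares with 2.60 to 5.97 RPKM in the other 5 lines. The median of the tested genes was 8.56 RPKM. Hes1, Jag2 and Notch2 were above 91.3, 84.9 and 82.8% of them, while Jag1 and Notch1 were below the median, above 44.4 and 32.1%.

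The genes whose level across the 6 lines was most like that of Hes1, by Pearson's r of log2 CPM among 9414 genes that averaged at least 50 counts and had none at 0, were Ercc1 (r = 0.991), which acts in nucleotide excision repair, Cdkn1a (r = 0.990), which encodes the cell cycle inhibitor p21, and Gm4617 (r = 0.990). All 6 points share the split into genotypes, so such values describe these lines and carry no p. Cdkn1a, a well-known p53 target, was measured at 300.6, 300.3 and 243 CPM in Myc_Utx lines and 12.8, 5.38 and 26.4 CPM in Myc_p53 lines, and in both genes line 2 was the lowest of the Myc_p53 lines and line 3 the highest. Its log2 fold change was 4.23 (SE 0.54, edgeR adjusted p = 0.0156). Ercc1 and Gm4617 had log2 fold changes of 0.58 and 0.75 and did not pass the test (edgeR adjusted p = 0.0774 and 0.0653).

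The rest of the pathway was described with a list of 60 other genes in 7 roles, of which 49 were tested. Among these 49, 4 were higher and 2 lower in Myc_Utx lines, against 6.99 and 7.69% of all tested genes, and the median log2 fold change was -0.22 against -0.01. The groups did not overlap for 22 of the 49, against 42.0% of all tested genes.

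Receptor cleavage held 3 of the 6 called genes, out of 10 tested, where 14.7% of all tested genes were called. Whether this role differed from other genes as a set was not tested. Furin, the protease that cuts Notch precursors on their way to the cell surface, was at 244, 209 and 263 CPM in Myc_Utx lines and at 127, 131 and 147 CPM in Myc_p53 lines (log2 fold change 0.82, SE 0.13, edgeR adjusted p = 0.0185). Psenen, a subunit of gamma-secretase, was at 24.1, 24.3 and 29.4 CPM against 16.3, 12.0 and 9.41 CPM (log2 fold change 1.04, SE 0.25, edgeR adjusted p = 0.0429). For both, every Myc_Utx line was above every Myc_p53 line, although Psenen was not called with length offsets (0.78, edgeR adjusted p = 0.0743), with total counts only (0.97, edgeR adjusted p = 0.0522) or without the filter on low counts (1.07, edgeR adjusted p = 0.0513). The gamma-secretase subunit Aph1c had 2, 2 and 1 counts in Myc_Utx lines and 27, 13 and 20 counts in Myc_p53 lines. The ratio of the summed levels, Myc_p53 over Myc_Utx, was 9.51 with an exact 95% counting interval of 3.86 to 30.3 (edgeR adjusted p = 0.0171). Every Myc_Utx line was under the floor of 3 counts, so Aph1c passed the filter on low counts through the Myc_p53 lines. Its call is therefore given as a description. As Aph1c is a near copy of Aph1b, reads may have been divided between them. Aph1b itself was not called (log2 fold change -0.56, edgeR adjusted p = 0.214), nor was the protease Adam10 (-0.10, edgeR adjusted p = 0.756).

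Of the 4 tested enzymes that add sugars to Notch receptors, Poglut1, an O-glucosyltransferase, was higher in Myc_Utx lines, at 112, 107 and 92.9 CPM against 62.6, 61.9 and 44.9 CPM (log2 fold change 0.88, SE 0.17, edgeR adjusted p = 0.0268). Among 11 nuclear co-repressors, Ctbp2 was higher (0.46, SE 0.12, edgeR adjusted p = 0.0473) and the histone H3 lysine 4 demethylase Kdm5a lower (-0.50, SE 0.11, edgeR adjusted p = 0.0340). Ctbp2 was at 100.3, 102 and 109.8 CPM in Myc_Utx lines and 72.9, 71.2 and 83.0 CPM in Myc_p53 lines, and Kdm5a at 127, 119.8 and 124 CPM against 189, 158 and 180.1 CPM, so neither pair of groups overlapped. Both calls were near the threshold, since Ctbp2 had an adjusted p of 0.0517 with DESeq2 size factors, 0.0596 with at least 10 counts in every line, 0.0623 with total counts only and 0.0847 without a filter, and Kdm5a moved to -0.19 (adjusted p = 0.293) with length offsets and had an adjusted p of 0.0742 without a filter. Without any 1 of lines 2A, 2B and 2D of Myc_Utx or line 3 of Myc_p53, none of the 6 pathway genes was called (adjusted p = 0.0541 to 0.143). Psenen was not called without Myc_p53 line 2 either (0.0702), nor Kdm5a without line 1 (0.0657), nor Ctbp2 without line 1 (0.0926) or line 2 (0.0640).

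No gene of the nuclear complex was called by edgeR among 9 tested, with 3 at an unadjusted p under 0.05 (35.0% of all tested genes) and 2 called by DESeq2 (24.2% of all), and their median log2 fold change was -0.52, with 7 below 0. Rbpj, the DNA-binding partner of the cleaved receptor, was at 67.6, 52.1 and 35.4 CPM in Myc_Utx lines and at 52.9, 112 and 95.4 CPM in Myc_p53 lines, which overlapped (log2 fold change -0.75, SE 0.34, edgeR adjusted p = 0.176). The log2 fold change of its co-activator Maml1 was -0.52 (edgeR adjusted p = 0.156).

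The genes of ligand and receptor ubiquitination and trafficking also gave 0 calls by edgeR among 12 tested, with 5 at an unadjusted p under 0.05 (35.0% of all tested genes) and 4 called by DESeq2 (24.2% of all). For Numb, an inhibitor of Notch, the log2 fold change was -0.57 (edgeR adjusted p = 0.0581), and for its relative Numbl it was 0.74 (edgeR adjusted p = 0.0510). Among the other ligands and ligand-like proteins 0 of 2 tested were called by either tool, with 0 at an unadjusted p under 0.05. Of them, Dlk1, a ligand-like protein of fetal liver, ranged from 13 to 527 counts in Myc_Utx lines and from 61 to 1990 counts in Myc_p53 lines.

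Of 8 further target genes, 1 was abundant enough to test. Hes6, a relative of Hes1, was at 35.1, 40.4 and 22.0 CPM in Myc_Utx lines and at 14.2, 10.01 and 28.2 CPM in Myc_p53 lines, which overlapped (log2 fold change 0.89, SE 0.43, edgeR adjusted p = 0.191). Hes2, Hes3 and Hes5 were at 0 counts in every line, and Hes7, Hey2, Heyl and Nrarp had at most 16 counts in any line. Summed over the 3 lines of a group, Heyl had 10 counts in Myc_Utx and 22 in Myc_p53 lines, and Nrarp had 2 and 9.

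**Figure D4:**
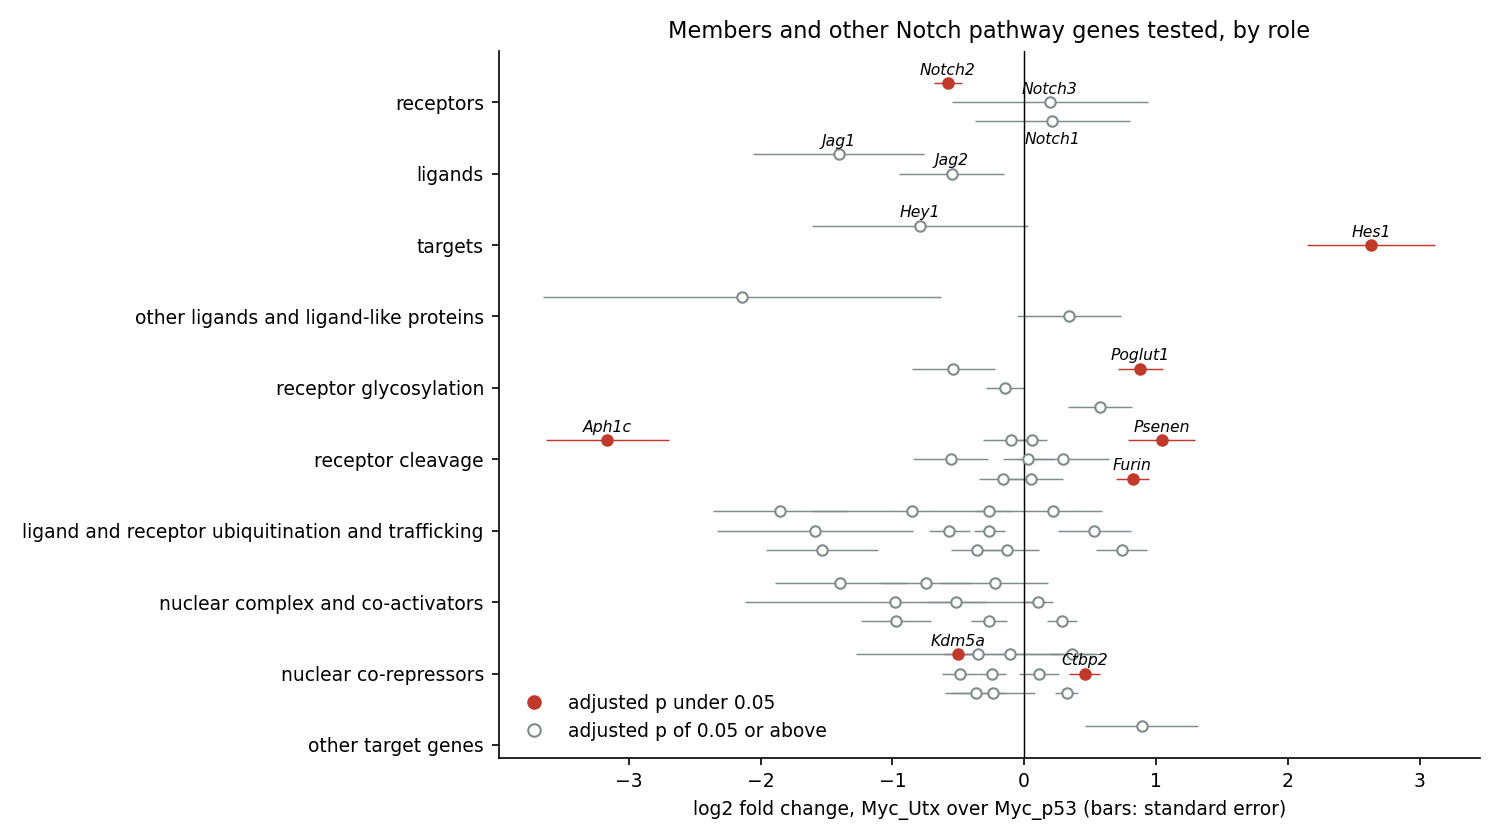
Each point is the log2 fold change (Myc_Utx over Myc_p53) of 1 tested gene, with a bar for its standard error, in rows by role, and filled points have an adjusted p under 0.05. Hes1 lies at 2.63, to the right of the other points, Notch2 at -0.58, and the 6 other filled points belong to glycosylation, cleavage and nuclear co-repressors.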

How the data were processed

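The authors deposited raw read counts per Ensembl gene (RNeasy extraction, Illumina libraries), without normalization, with a transcript length. Per the labels, Trimmomatic 0.36, STAR 2.5.3a, featureCounts 1.6.3 and DESeq2 1.20.0 were used with GRCm38, whereas the study's methods name HTSeq and a human build. Coordinates equal those of GENCODE M21 for 96.0% of genes, Notch3 being an exception. Whether counting used strand is not given in the sources used here. Genes were filtered with filterByExpr (minimum count 10), normalized with TMM and compared with the quasi-likelihood test of edgeR 4.0.16 in R 4.3.3, with adjustment over all 11510 genes tested. Each SE was taken as the absolute log2 fold change over the root of the F statistic. Single values and 10 shares, sums and ratios were also compared with exact permutation tests. The procedure was tested on simulated data. Alternatives were no filter, at least 10 counts in every line, DESeq2 size factors, total counts only, length offsets (MASS 7.3.60.0.1, splines with 5 degrees of freedom), DESeq2 1.42.0 and each line left out.

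The 10 Notch genes, the other lists and the tests were chosen with earlier results of these data known. All 10 are named, as are pathway genes with an adjusted p under 0.05 (at most 3 per direction and role), the 2 most abundant markers of each list and the 3 genes nearest to Hes1. Genes given for their role, for their direction within a marker list or for line 3 of the Myc_p53 group were named beyond this rule after their values were seen. Lines of a group differed by more than sampling noise, so each counts as 1 replicate. The counting interval covers counting error only.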

Additional observations from a re-analysis of the deposited data

How the results depend on the processing

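The direction of the Hes1 and Notch2 differences held under all 12 alternatives. Under the 6 that used all lines, Hes1 had log2 fold changes of 2.46 to 2.66 and kept the call, whereas Notch2 had -0.64 to -0.32 and lost it with length offsets (-0.32, adjusted p = 0.0992), leaving 0 Notch genes called lower. Leaving out each line in turn gave 2.30 to 3.27 for Hes1 and -0.64 to -0.51 for Notch2, and 0 to 1 Notch genes called higher and 0 to 1 called lower. The other pathway genes called numbered 0 to 3 higher and 0 to 6 lower in those fits, 2 higher and 2 lower without a filter, 2 higher and 4 lower with total counts only, 3 higher and 6 lower with at least 10 counts in every line, 5 higher and 1 lower with length offsets, 3 higher and 2 lower with DESeq2 size factors and 6 higher and 8 lower with DESeq2. Over all genes DESeq2 called 24.2%, no filter 6.61% and length offsets 11.1%, against 14.7%. Reversals were seen for Notch3 without Myc_Utx line 2A (-0.28) and Myc_p53 line 1 (-0.19), within a range of -0.28 to 0.72 over the lines left out, and for Notch1 without Myc_Utx line 2B, within a range of -0.27 to 0.69. Beyond the length offsets and the fits with fewer lines, the cause of these changes was not tested. No paired analysis was possible because no replicate number occurs in both groups. Depth limited Notch3, Notch4, Dll1, Dll4 and Hey1, each under 50 counts in every line.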
